A study of Mus musculus with 2 samples.

Results

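Mir103-1, Mir103-2 and Mir107 are the mouse genes for the paired microRNAs miR-103 and miR-107, and each lies inside a gene for a pantothenate kinase. They were taken by name, as the rows of the count table whose Ensembl identifier belongs to one of these symbols in the GENCODE annotation, and make up 3 of the 1973 miRNA genes in each library. The libraries are microRNA sequencing of the whole intestine of 2 newborn B6NCrl mice at postnatal day 0. Both pups came from 1 pregnant female and gave 1 library each, the labels name no treatment, allele or gut segment, and the sex was not collected. They form 1 group, called pup 2 and pup 1 here, so the data describe which of these genes the newborn gut held and how far littermates differed.

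Pantothenate kinases catalyse the committed step of coenzyme A synthesis. The miRNAs in their introns are copied as part of the host transcript, cut out as a hairpin by Drosha and trimmed by Dicer to a short mature strand. That strand pairs with target mRNAs mainly through its seed, bases 2 to 8. In mice, miR-103 and miR-107 are known to repress Cav1, a caveolin that stabilises the insulin receptor in liver and fat, and in human cells to repress DICER1.

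The mature strands are shown first because their near identity sets what the counts can resolve. They come from RefSeq on GRCm38.p6, where all 3 genes matched, and the capitals mark the seed. The 3p strands, the arm from which these miRNAs are named, are as follows.
miR-103-3p from Mir103-1 and from Mir103-2: aGCAGCAUuguacagggcuauga
miR-107-3p from Mir107: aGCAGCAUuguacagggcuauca
The strands of the other arm follow.
miR-103-1-5p: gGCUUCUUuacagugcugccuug
miR-103-2-5p: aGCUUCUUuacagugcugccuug
miR-107-5p: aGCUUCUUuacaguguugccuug

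All 3 genes thus share the 3p seed GCAGCAU and the 5p seed GCUUCUU, and no other gene in the RefSeq table has a mature strand with either seed. Counted from 1 at the 5′ end, miR-103-3p and miR-107-3p differ by 1 substitution in 23 bases, G22C. The Mir103-2 and Mir107 5p strands differ by C16U, the Mir103-2 and Mir103-1 5p strands by A1G, and the Mir103-1 and Mir107 5p strands by G1A and C16U. The 3p strands of Mir103-1 and Mir103-2 do not differ at all, so they are the same miRNA made at different loci.

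The hairpins diverge around these strands. The next lines give each hairpin with its 5p and 3p strands in capitals, to show where the copies can be told apart.
Mir103-1: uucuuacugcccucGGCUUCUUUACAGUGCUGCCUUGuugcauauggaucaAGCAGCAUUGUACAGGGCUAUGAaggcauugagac
Mir103-2: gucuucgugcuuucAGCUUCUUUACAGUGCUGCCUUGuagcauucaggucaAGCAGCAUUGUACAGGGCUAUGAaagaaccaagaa
Mir107: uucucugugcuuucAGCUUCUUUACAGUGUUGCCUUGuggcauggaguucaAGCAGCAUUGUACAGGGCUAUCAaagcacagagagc

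The longest exact run shared by the Mir103-1 and Mir103-2 hairpins is 27 nt, and each shares a run of 24 nt with Mir107. All these runs span the 3p strand or most of it. RNAfold gave minimum free energies of -35.8 kcal/mol for Mir103-1, -31.8 for Mir103-2 and -41.2 for Mir107. In those folds 20 of 23 bases of each 5p strand were paired, as were 20 of the 3p strand of each Mir103 copy and 19 of the 3p strand of Mir107.

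Each gene occupies the same place in its host. On GRCm38, Mir103-1 (ENSMUSG00000065553) lies at chr11:35782396-35782481 on the plus strand within Pank3. Mir103-2 (ENSMUSG00000065563) lies at chr2:131288052-131288137 on the plus strand within Pank2. Mir107 (ENSMUSG00000065594) lies at chr19:34820687-34820773 on the minus strand within Pank1. In the principal transcript of every one of these hosts the hairpin is on the host's strand in intron 5 of 6, between exons 5 and 6. None of the 3 hairpins overlaps an exon of any annotated transcript of its host.

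The introns that hold them differ in size. Intron 5 is 1740 bases long in Pank3, 5801 in Pank2 and 7282 in Pank1. The hairpin starts 688 bases after exon 5 in Pank3, 454 in Pank2 and 326 in Pank1, so in Pank2 and Pank1 it sits near the upstream end of the intron. The remaining family member, Pank4, contains 0 annotated miRNA genes. Of the 314 miRNA genes with at least 10 counts in each library, 111 (35.4%) lie, like these, only in introns of a protein-coding gene of their strand. Host mRNA is not measured by these libraries.

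**Figure D1:**
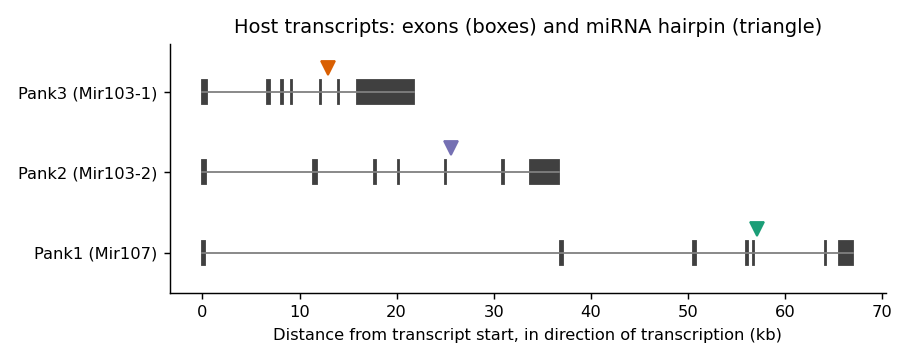
Exons (boxes) of the principal transcript of each Pank host against distance from the transcript start in kb, with a triangle at the miRNA hairpin. In all 3 hosts the triangle stands in intron 5 of 6.

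The libraries held 4683939 counts on the annotated strand of miRNA genes in pup 2 and 3567658 in pup 1. All reads numbered 8373497 in pup 2 and 6375694 in pup 1. Levels below are CPM, the counts of a gene per 1000000 of those counts. Multi-mapped reads, 29.8% of all reads in pup 2 and 30.3% in pup 1, entered the count of no gene. As a check of the labelled tissue, 6 of 6 marker genes of gut epithelium, such as Mir215 and Mir192, stood among the 20 highest genes. Smooth muscle Mir143 (161103 ± 21783 CPM) ranked 1st in mean CPM and endothelial Mir126a (52213 ± 3424) ranked 3rd, so epithelial markers were not alone at the top. Markers of other tissues were counted too. Heart Mir208b stood at 117 CPM in pup 2 and 105 in pup 1, and liver Mir122 at 12.4 in pup 2 and 28.9 in pup 1. Erythroid Mir451a stood at 110 CPM in pup 2 and 60.3 in pup 1. The origin of these reads was not tested. Whole tissue was sequenced, so fewer cells that make a miRNA and less of it per cell cannot be told apart. No label sets the animals apart beyond naming them as separate pups of 1 litter, and every ± is the SD over these 2.

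In the counted reads, Mir107 was the main gene of the 3, Mir103-2 was over 10-fold lower, and Mir103-1 was near the limit of detection. Mir107 had 4658 counts in pup 2 and 3433 in pup 1. That was 994 CPM in pup 2 and 962 in pup 1, a mean of 978 ± 22.8 (SD, n = 2). The pups thus differed little in Mir107, which ranked 80th of the 1973 genes in pup 2 and 88th in pup 1.

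Mir103-2 had 436 counts in pup 2 and 237 in pup 1. Its level was 93.1 CPM in pup 2 and 66.4 in pup 1, a mean of 79.8 ± 18.8 (SD, n = 2). Its rank was 179 in pup 2 and 191 in pup 1, below the middle of the 314 detected genes. The exact Poisson 95% intervals of the levels, which cover counting error only, were 84.6 to 102 CPM in pup 2 and 58.2 to 75.4 in pup 1 and did not overlap. Those of Mir107 overlapped, at 966 to 1023 CPM in pup 2 and 930 to 995 in pup 1. Overlap was not counted over all genes, but 41.1% of the 314 were called different between the libraries in the test below.

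Mir103-1 had 35 counts in pup 2 and 16 in pup 1. Its level was 7.47 CPM in pup 2 (95% interval 5.20 to 10.4) and 4.48 in pup 1 (2.56 to 7.28), a mean of 5.98 ± 2.11 (SD, n = 2). These intervals overlapped, and the gene ranked 272nd in pup 2 and 286th in pup 1. A count of 0 would have allowed up to 3 counts, or 0.640 CPM in pup 2 and 0.841 in pup 1, so the gene was above that floor in both. All 3 genes had 0 reads on the opposite strand in both pups.

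**Figure D2:**
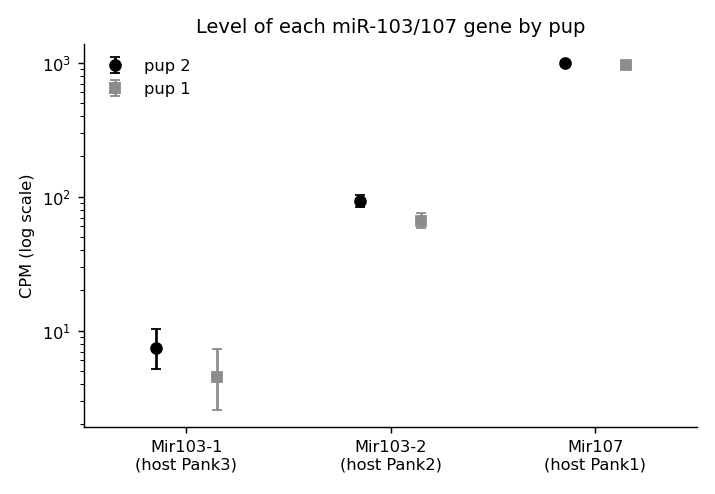
Level in CPM (log axis) of each gene in pup 2 (black circles) and pup 1 (grey squares), with exact Poisson 95% intervals of the counts. Mir107 stands near 1000 CPM, Mir103-2 between 66.4 and 93.1 and Mir103-1 between 4.48 and 7.47, with no overlap between genes.

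Within each library the genes stood far apart. Mir107 exceeded Mir103-2 by 10.7-fold in pup 2 (exact binomial 95% interval 9.68 to 11.8) and 14.5-fold in pup 1 (12.7 to 16.6), a mean log2 ratio of 3.64 ± 0.31 (SD, n = 2). Mir107 exceeded Mir103-1 by 133-fold in pup 2 (95.6 to 191) and 215-fold in pup 1 (132 to 376), a mean log2 ratio of 7.40 ± 0.49. Mir103-2 exceeded Mir103-1, whose 3p strand is the same, by 12.5-fold in pup 2 (8.82 to 18.1) and 14.8-fold in pup 1 (8.93 to 26.3). The mean log2 ratio was 3.76 ± 0.18. Each mean ratio was many times its spread between the pups, and the order of the 3 genes was the same in both. With 2 pups a 2-sided exact sign-flip permutation cannot go below 0.5, so these ratios carry no p-value.

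As shares of the 3 genes together, Mir107 took 90.8% of 5129 counts in pup 2 and 93.1% of 3686 in pup 1. Mir103-2 took 8.50% in pup 2 (exact Clopper-Pearson 95% interval 7.75 to 9.30) and 6.43% in pup 1 (5.66 to 7.27). Mir103-1 took 0.682% in pup 2 (0.476 to 0.948) and 0.434% in pup 1 (0.248 to 0.704). Both Mir103 copies together therefore made 9.18% of these counts in pup 2 and 6.86% in pup 1. The 3 genes summed to 1064 ± 43.7 CPM (SD, n = 2), about 0.110% of miRNA counts in pup 2 and 0.103% in pup 1.

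These levels are of reads that map to 1 place, which bears differently on the genes. The exact letters of the 1894 miRNA hairpins of the table with a GENCODE sequence were searched for reads that start at the first base of each mature strand. The whole 23-base miR-103-3p strand is found in 2 hairpins, Mir103-1 and Mir103-2, and a read of it is unique to its gene only from 25 bases on. A miR-107-3p read is unique from 22 bases on, and at 21 bases or fewer it is also found in both Mir103 hairpins. The 5p reads of all 3 genes are unique at every length from 16 to 30 bases. Under exact matching, a whole miR-107-3p read can thus be assigned to 1 of these hairpins and a whole miR-103-3p read cannot.

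The counts of Mir103-1 and Mir103-2 are therefore lower limits only if no read was counted for the wrong gene, which was not tested. Neither the ratio of Mir107 to either copy nor the ratio between the copies is a ratio of the mature miRNAs. On the same condition the count of Mir107 is a lower limit too, since 3p reads of 21 bases or fewer match all 3 hairpins. The files do not give arms or read lengths. It was therefore not tested which reads made up the counts of Mir103-2 or how many miR-103-3p or miR-107-3p reads were lost. Both Mir103 copies together had 471 counts in pup 2 and 253 in pup 1. The reads of any sequence that mapped to several places numbered 2492615 in pup 2 and 1932378 in pup 1. The part of these that is miR-103-3p is not known. How the aligner treated mismatches is not given in the sources used here, and other places in the genome were not searched.

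**Figure D3:**
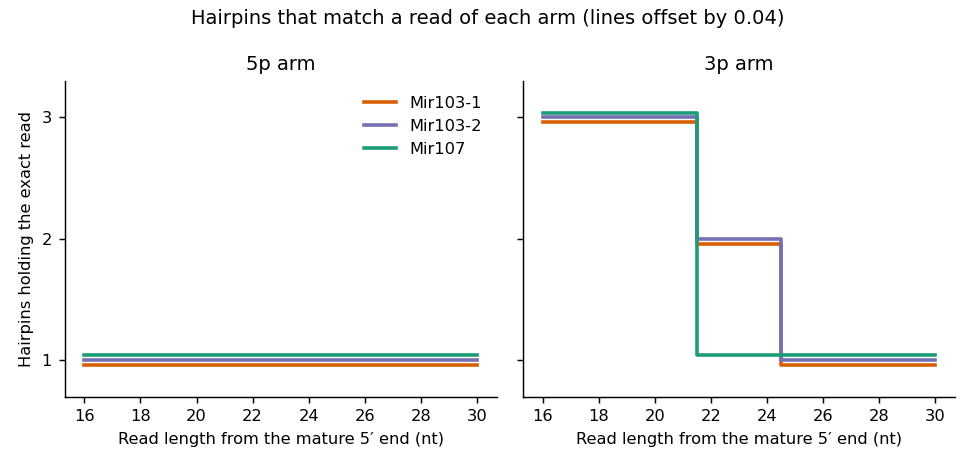
Number of miRNA hairpins that hold the exact read, against read length in nt from the 5′ end of the mature strand, for the 5p arm (left) and the 3p arm (right). The 5p reads match 1 hairpin at every length, while 3p reads match 3 hairpins up to 21 nt, after which Mir107 becomes unique and the Mir103 copies become unique from 25 nt.

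A mature strand from RefSeq was at hand for 1142 of the 1973 genes and for 288 of the 314 detected genes. The rest, Mir143 among them, had no such strand and entered neither class below. Among the genes with one, detected genes that share a mature strand with another hairpin lay lower than those that do not. The median was 49.8 CPM over 40 detected genes of the first kind and 200.0 over 248 of the second. Only 12.3% of the 324 genes with a shared strand were detected, against 30.3% of the 818 genes without. Mir103-2 ranked 15th and Mir103-1 36th among the 40, and Mir107 ranked 77th among the 248. The order of the medians depends on the count minimum: over genes with any count in both libraries it was 30.9 CPM for genes with a shared strand and 9.35 for those without. No test was made of these classes, whose genes also differ in much else.

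The genes of nearest mean level were of varied kinds. Mir107 stood between Mir708 (986 ± 84.9 CPM, in an intron of Tenm4) and Mir455 (990 ± 1.77, in an intron of Col27a1) above it, and Mir381 (949 ± 33.3) and Mir872 (940 ± 140) below it. Mir103-2 stood below Mirlet7a-2 (80.1 ± 14.5) and Mir222 (81.7 ± 2.54) and above Mir669l (79.4 ± 14.2) and Mir592 (78.1 ± 2.94). Mir103-1 stood below Mir3061 (6.52 ± 2.28) and Mir302a (6.63 ± 0.926) and above Mir1298 (5.96 ± 1.48) and Mir19b-1 (5.94 ± 1.26). None of these 12 means differed from its member's by more than the larger SD of the pair. Nearness here is the absolute log2 ratio of mean CPM over 2 pups.

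**Figure D4:**
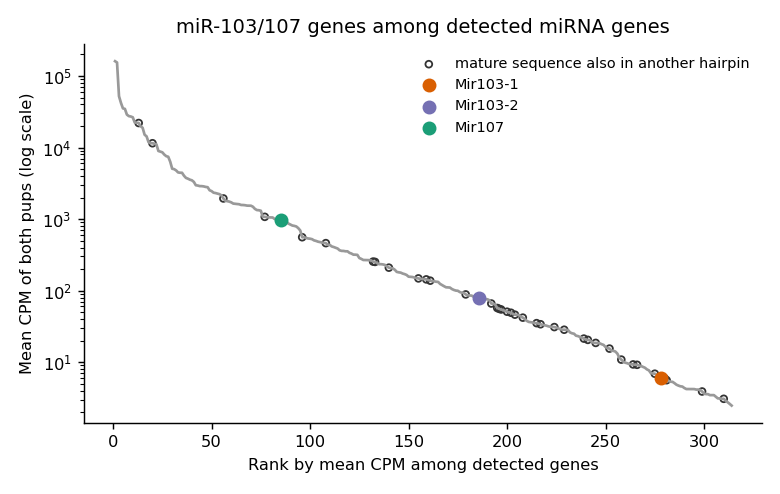
Mean CPM of both pups (log axis) against rank for the 314 detected miRNA genes (line), with the 3 genes as filled points and the genes whose mature strand is also in another hairpin as open circles. Mir107 is at rank 85, Mir103-2 at 186 and Mir103-1 at 278.

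MiR-103 and miR-107 belong by sequence to a wider group of miRNAs with AGCAGC at the 5′ end. In miR-103-3p and miR-107-3p these letters are bases 1 to 6, whereas in miR-15, miR-16, miR-195, miR-322 and miR-503 they are bases 2 to 7, so the seeds are offset by 1 base. The strands below show the offset, with the seed in capitals.
miR-107-3p: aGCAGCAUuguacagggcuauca
miR-15a-5p: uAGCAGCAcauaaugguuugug
miR-16-5p: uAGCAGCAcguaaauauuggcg
miR-322-5p: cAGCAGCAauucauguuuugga
The miR-15 and miR-16 miRNAs are known repressors of cell cycle genes, and Mir322 lies with Mir503 in a cluster on the X chromosome.

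The genes listed for this group summed to 17133 ± 186 CPM (SD, n = 2), 1.71% of miRNA counts, and Mir103-1, Mir103-2 and Mir107 made 6.44% of that sum in pup 2 and 5.98% in pup 1. Mir322 led with 7971 ± 476 CPM, ahead of Mir15a (3308 ± 98.5) and Mir16-1 (1941 ± 155). Mir195a (1057 ± 18.5), Mir15b (1053 ± 92.5) and Mir107 came next. The mean of Mir107 was lower than that of Mir15b by less than the spread of Mir15b, and lower than that of Mir195a by more than the spread of either. Mir16-2 (461 ± 71.4) and Mir503 (278 ± 3.91) stood above Mir103-2. Mir195b had 0 counts in both pups, and Mir497 was not analysed here. Mir16-1 and Mir16-2 share a mature strand as the Mir103 copies do. Their counts, too, are lower limits only if no read was counted for the wrong gene.

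MiRNAs known from lipid and insulin metabolism, listed because miR-103 and miR-107 are among them in mouse liver and fat, covered a wide range of levels. Of 14 listed genes 13 could be matched and 12 were detected, beside 314 of the 1973 genes in all. Mir378a had no matching identifier and was not analysed. Those of highest level were Mir143 (161103 ± 21783 CPM), Mir26b (27147 ± 1054), Mir27b (2460 ± 294) and Mir148a (803 ± 59.1). Mir107 lay below the first 3 of these and above Mir148a.

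Between the pups, Mir103-2 was higher in pup 2 and Mir107 was nearly level. The libraries were compared gene by gene with a 2-sided exact binomial test at TMM-scaled library sizes, with p-values adjusted by the Benjamini-Hochberg method over 314 genes. Of these, 41.1% were called at an adjusted p below 0.05, 21.3% higher and 19.7% lower in pup 2, so a call is common here. Mir103-2 was 1.44-fold higher in pup 2 (95% interval 1.23 to 1.70), a log2 ratio of 0.53 (adjusted p = 1.74e-05, exact binomial). Mir107 was 1.06-fold higher (1.02 to 1.11), a log2 ratio of 0.09 (adjusted p = 0.0155, exact binomial). Its call ended with total-count scaling (adjusted p = 0.265) and with every gene that had a count in the test (adjusted p = 0.0742), and the other alternatives gave adjusted p from 0.000168 to 0.019 by the same exact test. Mir103-1 had a ratio of 1.72 (0.925 to 3.32), a log2 ratio of 0.78 that was not called (adjusted p = 0.181, exact binomial).

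The test compares 2 libraries and contains no replicate of either pup. The absolute log2 ratio of Mir103-2 ranked 22nd of 314, that of Mir103-1 11th and that of Mir107 222nd, while the median over all detected genes was 0.18. Genes of few counts vary more: the 85 genes with 10 to 100 counts in pup 1, Mir103-1 among them, had a median absolute log2 ratio of 0.26. Of these, 3 had a higher signed log2 ratio than Mir103-1, a count that leaves out genes lower in pup 2. Only 4 of these 85 were called, against 58 of the 82 genes with 1000 to 10000 counts, the range of Mir107. In the range of Mir103-2, 100 to 1000 counts, 26 of 102 genes were called. Their absolute log2 ratio had a median of 0.18 and a 90th percentile of 0.44. The split of all calls depended on scaling, with 51.9% higher in pup 2 as tested, 41.7% with total counts and 64.6% with upper-quartile scaling.

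Ratios within a library need no scaling. The ratio of Mir107 to Mir103-2 was lower in pup 2 (10.7) than in pup 1 (14.5), a log2 difference of -0.44 (Fisher's exact test, 2-sided, adjusted p = 0.000751 over 3 ratios). The ratio of Mir107 to Mir103-1 differed by -0.69 (adjusted p = 0.179, Fisher's exact test) and that of Mir103-2 to Mir103-1 by -0.25 (adjusted p = 0.649, Fisher's exact test). These tests of reads were chosen after the values were seen and compare the libraries only. They reuse the counts of the binomial test and are not separate evidence. In the wider sequence group 6 of 10 tested genes, Mir103-2 and Mir107 among them, were called higher in pup 2 and 2 lower. Of all 314 detected genes 21.3% were higher and 19.7% lower. The group's tested genes other than Mir103-1 and Mir103-2 had at least 1000 counts in pup 1, where calls are more common. Of the 82 genes with 1000 to 10000 counts 58 were called, so the group's calls are not read as particular to it. The counts were 4 higher and 2 lower with total-count scaling, where the uncalled Mir503 also changed sign, and 4 higher and 2 lower with every gene that had a count in the test. With total-count scaling, 53 of 314 genes in all were higher and 74 lower. With every gene that had a count, 59 of 672 were higher and 61 lower. The group's median log2 ratio was 0.10, against 0.00 over all detected genes.

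**Figure D5:**
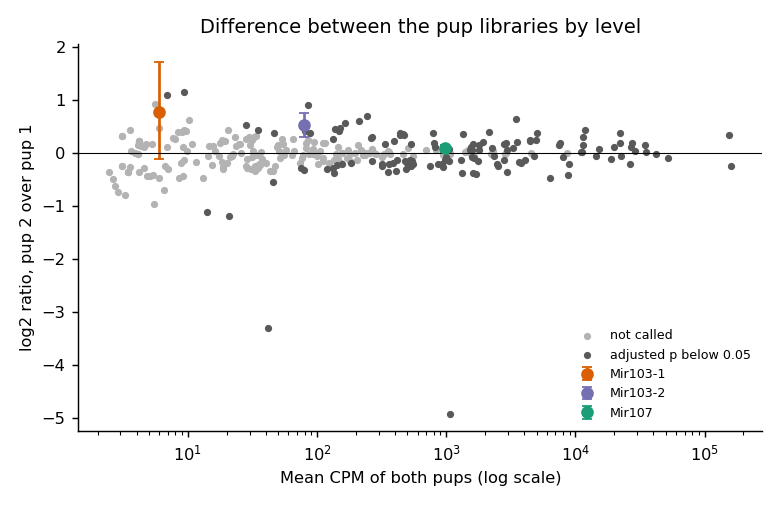
Log2 ratio of pup 2 over pup 1 against mean CPM (log axis) for the 314 detected genes, dark where the adjusted p is below 0.05, with exact binomial 95% intervals for the 3 genes. Mir103-2 (0.53) lies above 0 with its interval, Mir107 (0.09) lies just above it, and the interval of Mir103-1 (0.78) crosses it.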

How the data were processed

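The authors deposited a count of reads for each miRNA gene, on the mm10 assembly with GENCODE M4, per the file headers of the accompanying text. The aligner and counter are not given in the sources used here. From their sums, the 3 count columns hold reads on either strand, the annotated strand and the opposite strand, and the annotated strand was used. Totals of reads in no gene stayed out of library sizes: unmapped reads were 9.75% ± 0.562, multi-mapped reads 30.0% ± 0.382 and reads outside the annotated strand of miRNA genes 4.27% ± 0.166 of all reads (SD, n = 2).

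Of 1973 identifiers, 1894 matched GENCODE M21 on GRCm38, the assembly mm10 names in another style, which gave symbols, coordinates, hosts and hairpins. The other 79 held 0 counts. Mature strands came from RefSeq (GRCm38.p6).

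CPM, means and SDs were computed in Python 3.11.15, exact tests and intervals with scipy 1.17.1, TMM scaling of detected genes with edgeR 4.0.16, size factors with DESeq2 1.42.0, and folds with RNAfold 2.7.2. The binomial test was tested on counts simulated with counting error only, so that check does not cover variation between animals or libraries. Detected means at least 10 counts in each library. Named genes are the members, the AGCAGC group and the 2 genes next above and below each member in mean CPM. Also named are the 4 highest of the metabolic list, its unmatched Mir378a and some marker genes of tissues. Members, lists and tests were chosen with earlier results of these data known. Alternatives were other scalings, count minimums, strands, denominators, a pseudocount and each pup alone.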

Additional observations from a re-analysis of the deposited data

How the results depend on the processing

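The ratios between the 3 genes moved by less than the spread between the pups with either strand counted and with a pseudocount of 0.5. In each pup alone the mean log2 ratio ran from 3.42 to 3.86 for Mir107 over Mir103-2, from 7.06 to 7.75 for Mir107 over Mir103-1 and from 3.64 to 3.89 for Mir103-2 over Mir103-1. Per 1000000 of all reads the mean levels were 3.34 for Mir103-1, 44.6 for Mir103-2 and 547 for Mir107, by construction of the larger denominator. Counting either strand also enlarges the denominator, and Mir107 was then at 945 CPM. Leaving out of the denominator Mir143, the gene of highest mean count over both pups, makes it smaller, and Mir107 was then at 1166 CPM. The share of the AGCAGC group was 1.66% with either strand counted and 0.959% of all reads. The number of genes called between the pups was 129, and 120 to 136 under the alternatives. The call of Mir103-2 held under all 6 alternatives, and Mir103-1 was not called under any of the 5 that tested it. No paired analysis was possible because the series has 1 group, and leaving out a pup leaves no comparison between pups. Limits are the depth of Mir103-1, with 35 counts in pup 2 and 16 in pup 1, and a design of 2 pups with 1 library each. Both pups are of 1 litter. Reads that map to several places are a further limit for both Mir103 copies and, at 21 bases or fewer of the 3p strand, for Mir107.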
